A study of Mus musculus with 4 samples.

Results

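In the E13.5 gonad library, 398 germ cells held at least 1 unique molecular identifier (UMI, a tag that counts 1 captured RNA molecule) of Stra8. They were selected by rule: a UMI of at least 3 of the 6 germ cell genes Dazl, Ddx4, Dnd1, Mael, Dppa5a and Mov10l1, none of the erythroid gene Alas2, and at least 1 of Stra8. They are 50.8% (95% exact interval 47.3% to 54.4%) of the 783 germ cells that pass the same gate at E13.5, and 398 of the 19387 cells of the whole study. The other 385 germ cells of that library, with Stra8 at 0, serve as the comparison. The study profiled XX gonads from C57BL/6 mice once a day from E11.5 to E14.5, with no further allele or treatment named. Gonads were digested with TrypLE, a trypsin-like enzyme, and whole suspensions were captured with the 10x Chromium 3′ kit, version 2. There was 1 library per stage, and the number of embryos behind each is not given in the sources used here.

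In the XX gonad, germ cells stop dividing by mitosis and enter meiosis, the divisions that will later give the egg. Stra8 encodes a transcriptional regulator, switched on with retinoic acid and BMP signals, that drives this entry. Cells that enter it build chromosome axes from meiotic cohesin and SYCP proteins, make and repair DNA breaks, and shut off the pluripotency genes that primordial germ cells carry.

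Both classes come from 1 library, so cells are not replicates: no test was run, no p-value is given, and each interval is an exact 95% interval that covers counting error only. Levels are counts per 1000000 UMIs (CPM), summed over the cells of a class. The cells with Stra8 were the shallower class, with a median of 22918.5 UMIs (5677 to 61594) and 4423.5 genes per cell. Cells without Stra8 had a median of 26041 UMIs (5660 to 61636) and 4547 genes. The summed depth was 9770397 UMIs with Stra8 and 10444304 without. Mitochondrial UMIs made up 3.32% and 3.42%. Of the 398 cell barcodes, 3 also occur in the E11.5 library, 3 in the E12.5 library and 0 in the E14.5 library.

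The labels were checked against defining genes. Dazl, an RNA-binding protein gene of germ cells (612 CPM), Ddx4, a germ cell helicase gene (160 CPM), and Dppa5a (951 CPM) belong to the gate and so check nothing. Pou5f1, a pluripotency gene that germ cells keep and the gate does not use, had a UMI in 48.5% of the cells with Stra8 after thinning to 5000 UMIs and in 0.667% of the E13.5 cells with at most 1 germ cell gene. Unthinned, the shares were 90.2% and 1.69%. Markers of the supporting lineage were low: with every cell thinned at random to 5000 UMIs, 4.02% of the cells with Stra8 had a UMI of Wnt4, against 43.9% of the 3900 E13.5 cells with at most 1 of the 6 germ cell genes. Unthinned, those shares were 15.1% and 60.6%, at median depths of 22918.5 and 10488 UMIs.

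A few cells stood apart. In 17 of the 783 cells the 6 germ cell genes together came to less than 500 CPM, a limit set after the values were seen, and 16 of the 17 lacked Stra8. These 17 cells held Xist, the RNA of the inactive X chromosome, at a median of 2502 CPM, as against 30.8 CPM in the other 766 and 2231 CPM in the cells with at most 1 germ cell gene. Their summed pre-granulosa markers came to 1839 CPM, against 82.1 CPM in the 766. Over all 783 cells, the 9 pre-granulosa markers stood at 97.6 CPM with Stra8 and 140 CPM without, and Xist at 128 and 197 CPM. Without the 17 cells the markers stood at 84.8 and 79.6 CPM and Xist at 109 and 97.0 CPM, so both differences changed sign. Where leaving these cells out turns a statement about a gene or list below, both values are given. Scrublet called 20 of the cells with Stra8 and 25 of those without as doublets, and these were kept. Pre-granulosa markers were not confined to the 17 cells. A UMI of 3 or more of the 9 was found in 44 of the other 397 cells with Stra8. Without Stra8 it was 40 of the other 369. For 7 or more markers the numbers were 9 and 10, and Xist reached 2023 and 1679 CPM per cell. Cells with 3 or more markers were left out only in an alternative.

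Stra8 itself ranged from 1 to 35 UMIs per cell, with a median of 4. Of the 398 cells, 89 held 1 UMI, 309 held 2 or more and 93 held 10 or more. Summed, they held 2602 Stra8 UMIs, or 266 CPM. Because Stra8 chose the cells, these are descriptions. A UMI of Stra8 was found in 48 of 3900 cells (1.23%, 0.909% to 1.63%) with at most 1 germ cell gene, at a median depth of 10488 UMIs. With every cell thinned to 5000 UMIs the shares were 31.5% of the 783 germ cells and 0.538% of the 3900, and the share in germ cells lies above this background with and without thinning. Absence of a UMI is not absence of expression at these depths: 247 of the 398 (62.1%) kept a Stra8 UMI after thinning.

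**Figure D1:**
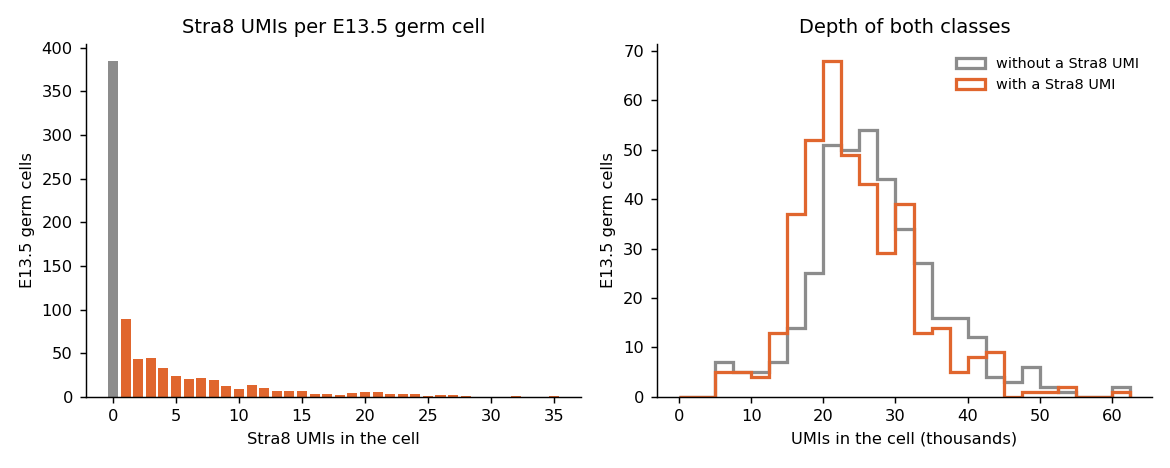
Left, the number of E13.5 germ cells (vertical axis) by the number of Stra8 UMIs in the cell, with cells at 0 in grey and cells with Stra8 in orange. Right, the number of cells by UMIs per cell (axis in units of 1000) for both classes; the class with Stra8 lies lower, with medians of 22918.5 and 26041 UMIs.

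At the edge of the gate, cells with exactly 3 of the 6 genes rarely had Stra8, in 5 of 41. The number was 47 of 124 with 4 genes, 157 of 317 with 5 and 189 of 301 with all 6. Median depth also rose, at 21305, 22830, 25264 and 25453 UMIs for 3, 4, 5 and 6 genes, and its part was not tested. Just outside, 5 of 131 cells with 2 genes had a Stra8 UMI, at a median of 12471 UMIs per cell. The Alas2 condition kept out 19 cells, 7 of them with Stra8. The same rule found 0 cells with Stra8 among 242 germ cells at E11.5, which allows up to 1.24%. It found 19 of 668 (2.84%, 1.72% to 4.41%) at E12.5 and 2272 of 2390 (95.1%, 94.1% to 95.9%) at E14.5. The background differed between the libraries. Among cells with at most 1 germ cell gene, a Stra8 UMI was found in 0.0247% at E12.5 and 1.23% at E13.5. At E14.5 it was found in 268 of 2128 such cells (12.6%, 11.2% to 14.1%). The 2272 cells at E14.5 held a median of 15 Stra8 UMIs at a median depth of 15521.5 UMIs.

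Promoters are shown for Stra8 and for the genes of meiotic entry, cohesin and the synaptonemal complex that differ most between the classes, as the 250 bases before the RefSeq start of each gene (GRCm38.p6), 5′ to 3′ on the strand of the gene. Capitals mark matches to 3 short motifs searched on both strands: AGGTCA, a half-site of nuclear receptors such as those for retinoic acid, CACGTG, the E-box of basic helix-loop-helix factors, and GGCGGGA, a core found in E2F sites. No match overlapped another.
Stra8 (chr6:34920698-34920947, plus strand): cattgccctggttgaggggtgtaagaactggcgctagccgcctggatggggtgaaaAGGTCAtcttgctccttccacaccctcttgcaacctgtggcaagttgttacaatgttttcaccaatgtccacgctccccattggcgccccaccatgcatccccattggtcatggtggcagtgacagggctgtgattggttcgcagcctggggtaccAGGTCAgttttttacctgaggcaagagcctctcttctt
Meioc (chr11:102665335-102665584, plus strand): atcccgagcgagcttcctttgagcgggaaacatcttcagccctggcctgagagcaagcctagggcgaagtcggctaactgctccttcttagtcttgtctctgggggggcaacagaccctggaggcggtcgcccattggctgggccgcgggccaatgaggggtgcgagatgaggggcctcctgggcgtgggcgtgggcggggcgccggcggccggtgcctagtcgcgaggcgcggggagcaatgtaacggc
Rec8 (chr14:55617916-55618165, plus strand): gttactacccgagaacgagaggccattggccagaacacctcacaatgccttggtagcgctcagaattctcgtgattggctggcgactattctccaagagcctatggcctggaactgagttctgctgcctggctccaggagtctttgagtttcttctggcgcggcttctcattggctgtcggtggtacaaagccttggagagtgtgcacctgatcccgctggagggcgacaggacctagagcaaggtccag
Sycp1 (chr3:102936101-102936350, minus strand): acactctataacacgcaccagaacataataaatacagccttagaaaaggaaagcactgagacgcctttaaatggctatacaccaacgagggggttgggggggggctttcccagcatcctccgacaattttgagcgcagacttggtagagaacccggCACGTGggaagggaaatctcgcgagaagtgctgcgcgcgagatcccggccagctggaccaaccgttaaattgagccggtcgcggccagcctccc
Sycp3 (chr10:88459337-88459586, plus strand): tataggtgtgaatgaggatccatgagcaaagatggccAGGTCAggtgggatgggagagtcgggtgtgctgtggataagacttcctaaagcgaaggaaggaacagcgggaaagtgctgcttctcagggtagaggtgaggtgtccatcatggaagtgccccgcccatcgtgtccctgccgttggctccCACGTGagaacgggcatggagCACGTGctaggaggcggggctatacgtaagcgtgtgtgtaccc

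The Stra8 window holds AGGTCA at 2 places, with the first letter 194 and 38 bases before the start. Sycp3 holds AGGTCA once and CACGTG at 2 places, Sycp1 holds CACGTG once, and the windows of Meioc and Rec8 hold none of the 3 motifs. Over 27025 promoters, 1 per symbol, 13.8% held AGGTCA, 6.05% held CACGTG and 9.76% held GGCGGGA. Of the 44 genes of the meiosis lists described below, 36 had a promoter in the table. Among them 5 held AGGTCA (13.9%), 9 held CACGTG and 8 held GGCGGGA (22.2%). Among 4106 promoters of genes measured in these cells, the shares were 9.99%, 9.79% and 20.6%. A match describes letters and is not shown to be a bound site.

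Summed over their lists, genes of meiosis stood higher in the cells with Stra8 and pluripotency genes lower. A gene was counted as different when it had at least 50 UMIs over both classes, at least 20 CPM in the higher class, a ratio of at least 2 and intervals of its levels that did not overlap. Of 5225 genes that met the minimums, 30 were higher (0.574%) and 15 were lower (0.287%) with Stra8, and the median log2 ratio of all 5225 was 0.04. Genes of the selection rule are left out of these counts. A median-of-ratios scale, which shifts all log2 ratios by 0.06, gave 27 higher and 28 lower. With every cell thinned to 5000 UMIs, so that each cell weighs the same, there were 79 higher and 51 lower, of which 23 and 12 were among the first 30 and 15. Without the 17 cells that stood apart there were 33 and 20, with 28 of the 30 and all 15 among them.

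**Figure D2:**
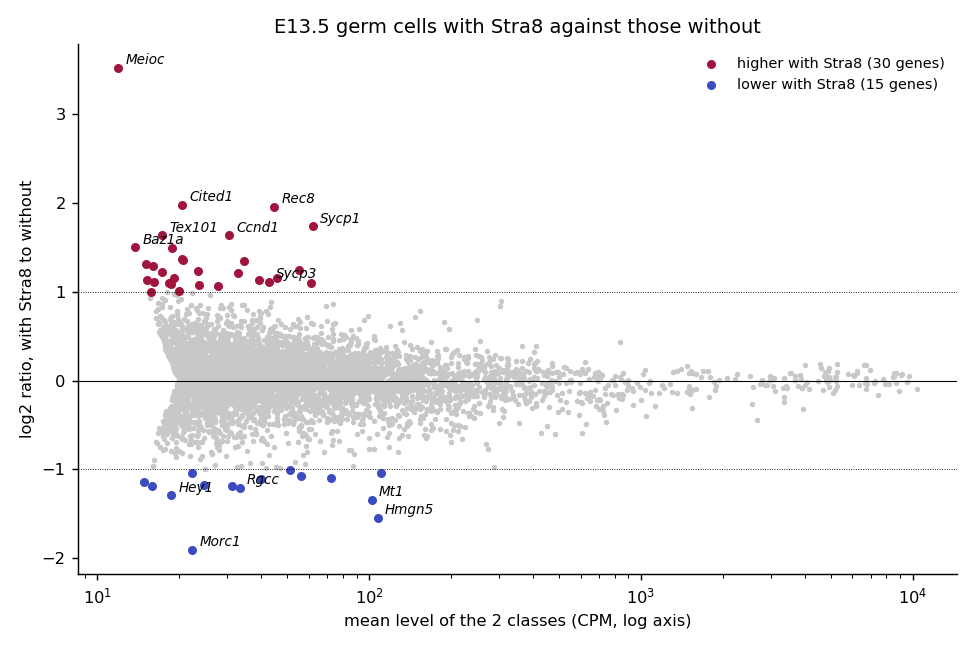
Each point is 1 of 5225 genes; the horizontal axis is the mean level of both classes in CPM (log axis) and the vertical axis the log2 ratio of E13.5 germ cells with Stra8 to those without. The 30 genes higher by the size rule are red and the 15 lower are blue, dotted lines mark a ratio of 2, and Meioc lies above all others.

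Of the 5225 genes that met the minimums, Meioc had the largest ratio. It encodes a coiled-coil partner of the RNA helicase YTHDC2 that keeps cells in meiotic prophase. It stood at 22.0 CPM (19.2 to 25.2) with Stra8 and 1.91 CPM (1.17 to 2.96) without, a log2 ratio of 3.52 (2.86 to 4.26), from 215 and 20 UMIs. Thinned to 5000 UMIs, 12.3% of the cells with Stra8 had a Meioc UMI, against 1.04% of those without and 0.0513% of the cells with at most 1 germ cell gene. Unthinned, these shares were 33.2%, 4.94% and 0.205%.

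The other genes of meiotic entry differed less. Ythdc2 stood at 25.7 and 15.9 CPM with and without Stra8, a log2 ratio of 0.69 (0.40 to 0.98). Rbm46, an RNA-binding protein gene of germ cells, stood at 64.1 and 46.5 CPM, or 0.46 (0.29 to 0.64). Zglp1, a zinc-finger factor that promotes the oogenic fate, stood at 111 and 73.8 CPM, or 0.58 (0.45 to 0.72). Gm4969, the older symbol of Meiosin, whose product acts with STRA8, was near the limit of detection with 1.43 and 0.479 CPM, a log2 ratio of 1.58 (0.03 to 3.41) whose interval includes 0 without the 17 cells. Of the 5 genes of this list besides Stra8, 4 met the minimums and 1 was higher by the size rule, beside 0.574% of all genes.

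Meiotic cohesin, the ring that holds sister chromatids along the meiotic axis, was the list with the largest summed ratio among those of meiosis: 536 against 275 CPM, a log2 ratio of 0.96 (0.90 to 1.03). Its kleisin subunit gene Rec8 stood at 71.3 CPM (66.1 to 76.8) with Stra8 and 18.4 CPM (15.9 to 21.2) without, a log2 ratio of 1.96 (1.72 to 2.19). After thinning, a Rec8 UMI was found in 35.2% and 11.9% of the cells. The share in cells with at most 1 germ cell gene was 9.36%. Unthinned, the 3 shares were 72.4%, 33.8% and 18.1%. Smc1b stood at 399 and 214 CPM, a log2 ratio of 0.90 (0.82 to 0.97), and Stag3 at 65.5 and 42.7 CPM, or 0.62 (0.44 to 0.79). Rad21l had no UMI in either class.

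The synaptonemal complex joins homologous chromosomes, and its 10 listed genes with the axis genes came to 726 CPM with Stra8 and 500 CPM without, a log2 ratio of 0.54 (0.49 to 0.59). Sycp1, its transverse filament, stood at 95.6 CPM (89.6 to 102) and 28.6 CPM (25.5 to 32.1), a log2 ratio of 1.74 (1.55 to 1.93). Sycp3, of the lateral element, stood at 58.7 and 27.1 CPM, or 1.12 (0.91 to 1.33). Syce1, Syce3 and 4930447C04Rik (SIX6OS1), of the central element, had log2 ratios of 0.79, 0.85 and 0.84, and Hormad1, of the unsynapsed axis, 0.53. Syce2 was nearly level, at 324 and 299 CPM, or 0.12 (0.04 to 0.19). All 7 genes that met the minimums had intervals above 0, beside 1525 of the 5225 genes, and 2 of them, Sycp1 and Sycp3, were higher by the size rule, beside 0.574% of all genes.

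The recombination genes, which make and repair the programmed DNA breaks, were low in both classes, and 6 of 22 met the minimums. Summed, they came to 322 and 236 CPM, a log2 ratio of 0.45 (0.37 to 0.52), with 0 genes higher by the size rule. Brca2 and Tex15 each had a log2 ratio of 0.61 and Hsf2bp of 0.54, whereas Psmc3ip (0.01, -0.19 to 0.21) and Rec114 (0.07, -0.14 to 0.27) did not differ beyond counting error. Dmc1, the strand exchange recombinase, stood at 18.4 and 10.1 CPM, below the level minimum. Prdm9, which places the breaks, had 22 UMIs with Stra8 and 2 without, a log2 ratio of 3.56 (1.53 to 6.69).

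Over all 44 genes of the meiosis lists, Stra8 left out, the summed level was 1839 CPM (1812 to 1866) with Stra8 and 1174 CPM (1153 to 1195) without. The log2 ratio was 0.65 (0.61 to 0.68), and 0.61 without the 17 cells. Of the 21 genes that met the minimums, 4 were higher by the size rule, beside 0.574% of all genes, 0 were lower, and 18 had intervals above 0. Their median log2 ratio was 0.61, beside 0.04 over all genes, of which 1525 of 5225 had intervals above 0.

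Pluripotency genes, which primordial germ cells share with embryonic stem cells, were lower with Stra8: 1702 CPM (1677 to 1729) against 2325 CPM (2295 to 2354), a log2 ratio of -0.45 (-0.48 to -0.42). Of 14 genes that met the minimums, 13 had intervals below 0, beside 1211 of the 5225 genes, and 2, Klf2 and Sox15, were lower by the size rule, beside 0.287% of all genes. Klf2 stood at 46.1 and 98.4 CPM, a log2 ratio of -1.10 (-1.26 to -0.93), and Sox15 at 15.1 and 34.1 CPM, or -1.17 (-1.46 to -0.89). Nanog, a core pluripotency factor, stood at 18.5 CPM (15.9 to 21.4) with Stra8 and 35.8 CPM (32.3 to 39.6) without. Utf1 stood at 383 and 580 CPM, a log2 ratio of -0.60 (-0.66 to -0.54), and Zfp42 had -0.80. Pou5f1 (-0.43), Sall4 (-0.32), Sox2 (-0.28) and Dppa3 (-0.24) differed less. Lin28a, an RNA-binding protein that blocks let-7 processing, was the exception, at 72.3 and 66.1 CPM, or 0.13 (-0.02 to 0.28).

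Genes of germ cell specification followed the same direction, at 632 against 928 CPM summed, a log2 ratio of -0.55 (-0.60 to -0.51). Tfap2c stood at 45.8 and 68.6 CPM, Nanos3 at 17.7 and 28.6 CPM, Prdm1 at 20.3 and 26.7 CPM and the surface protein gene Ifitm3 at 486 and 731 CPM. None of the 5 that met the minimums passed the size rule. Kit, the receptor for the survival factor made by somatic cells, stood at 53.9 and 59.7 CPM, a log2 ratio of -0.15 (-0.32 to 0.02), and at -0.19 (-0.36 to -0.02) without the 17 cells.

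**Figure D3:**
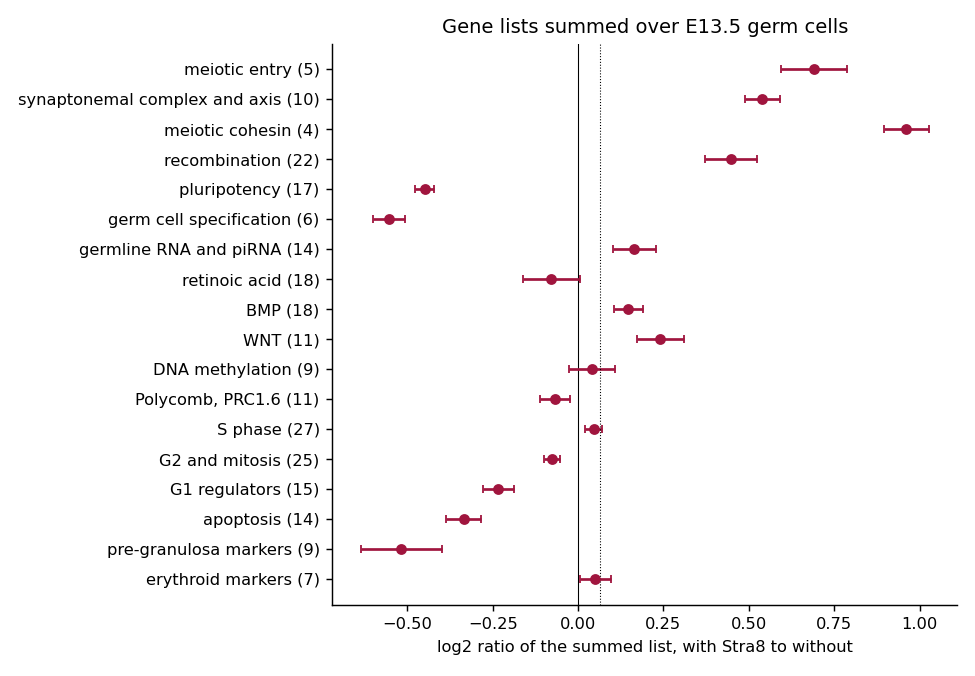
Points are log2 ratios of gene lists summed over E13.5 germ cells with Stra8 to those without, with exact 95% intervals of counting error; the number of genes is in parentheses, and the dotted line marks the median-of-ratios scale. Lists chosen on these libraries and the other marker lists are not drawn. Of those drawn, meiotic cohesin lies highest at 0.96 and germ cell specification lowest at -0.55, and the pre-granulosa markers at -0.52 reach 0.09 without the 17 cells that stood apart.

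Among signals known to act at meiotic entry, differences were smaller. The WNT list, of pathway components and targets, came to 373 and 315 CPM, a log2 ratio of 0.24 (0.17 to 0.31). Its target genes Nkd1 (0.87, 0.55 to 1.21) and Axin2 (0.47, 0.28 to 0.67) and the effector Ctnnb1 (0.35, 0.25 to 0.46) had log2 ratios above 0. Lef1 had -0.20 (-0.38 to -0.02). None of the 5 genes that met the minimums passed the size rule. Without the 17 cells Nkd1 had a log2 ratio of 1.13, with 21.3 and 9.74 CPM, and passed it. The BMP list came to 905 and 818 CPM, or 0.15 (0.10 to 0.19). Its member Msx1, a homeobox gene induced by BMP, was higher by the size rule, at 49.6 CPM (45.3 to 54.3) and 19.4 CPM (16.9 to 22.3), a log2 ratio of 1.35. After thinning, a Msx1 UMI was found in 21.6% of the cells with Stra8 and 7.79% of those without. In cells with at most 1 germ cell gene the share was 18.8%. Unthinned, these shares were 59.0%, 36.6% and 30.0%. The part of RNA from somatic cells in the Msx1 ratio was not tested. Among the other genes of the BMP list, Gata2 had a log2 ratio of 0.49 and Id2 of 0.39. Msx2 (0.01, -0.17 to 0.19) and Smad4 (-0.18, -0.41 to 0.05) did not differ beyond counting error. Smad5 had 0.23 (-0.02 to 0.49) over all cells and 0.33 (0.06 to 0.60) without the 17.

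The retinoic acid list did not differ as a sum, at 224 and 237 CPM, or -0.08 (-0.16 to 0.01). Its members went both ways. The receptor gene Rara (24.2 and 18.4 CPM, 0.39) and the binding protein gene Crabp1 (64.4 and 48.0 CPM, 0.42) had log2 ratios above 0. They did not pass the size rule. Aldh1a3, which makes retinoic acid from retinal, was lower by the size rule, at 9.31 and 20.5 CPM, a log2 ratio of -1.14 (-1.51 to -0.78). Without the called doublets its log2 ratio was -0.74, short of the rule, and with all 6 germ cell genes required it was -2.22. Cyp26b1, which degrades retinoic acid, was close to the limit of detection at 0.921 and 0.670 CPM.

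The list of G1 regulators came to 717 and 843 CPM, a log2 ratio of -0.23 (-0.28 to -0.19), and of -0.13 without the 17 cells. Of its 9 genes that met the minimums, 2 were higher by the size rule, beside 0.574% of all genes. The S phase list (2686 and 2603 CPM, 0.05) and the list of G2 and mitosis (2975 and 3137 CPM, -0.08) were nearly level, the first changing sign to -0.02 on the median-of-ratios scale and standing at 0.02 without the 17 cells, with an interval that includes 0. Ccnd1 stood at 46.3 CPM (42.1 to 50.7) with Stra8 and 14.8 CPM (12.6 to 17.4) without, a log2 ratio of 1.64, and Cdkn2d, which encodes an inhibitor of CDK4 and CDK6, at 54.3 and 24.7 CPM, or 1.14 (0.92 to 1.36). These are the 2 that passed. After thinning, a Ccnd1 UMI was found in 21.6% of the cells with Stra8 and 5.45% of those without. In cells with at most 1 germ cell gene the share was 10.9%. For Cdkn2d these shares were 24.6%, 10.1% and 11.4%. Cdk4 (203 and 346 CPM, -0.77) and Ccnd3 (105 and 160 CPM, -0.61) did not pass. Cdkn1c had a log2 ratio of 0.12 over all cells and 0.65 (0.52 to 0.78) without the 17 cells. Ccnd2 had -0.69 and 0.03, so the values of both genes turn on those cells. Among apoptosis genes, Trp53 stood at 92.5 and 162 CPM, or -0.81 (-0.93 to -0.69), and Bax at 274 and 341 CPM, or -0.31.

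Genes of DNA methylation were level as a sum (0.04, -0.03 to 0.11, and -0.02 on the median-of-ratios scale), but Uhrf1, which brings the maintenance methylase to DNA, stood at 25.9 and 13.3 CPM, or 0.96 (0.66 to 1.27). Tet1, which oxidises methylated cytosine, stood at 67.2 and 81.9 CPM, or -0.28 (-0.43 to -0.14). The list of Polycomb and PRC1.6 subunits had a summed log2 ratio of -0.07. In it, Max stood at 46.8 and 66.1 CPM (-0.50) and Rnf2 at 58.9 and 46.2 CPM (0.35). None of the 15 genes of both lists that met the minimums passed the size rule over all cells. Without the 17 cells Uhrf1 had a log2 ratio of 1.13 (0.81 to 1.45), past it. In the list of germline RNA and piRNA genes, outside the selection markers, which came to 427 and 381 CPM (0.16), 0 of 6 genes passed the size rule. Piwil2 stood at 29.8 and 23.0 CPM (0.37) and Tdrd12 at 13.8 and 22.4 CPM (-0.70).

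Among the other genes with the largest ratios were some that an earlier look at these libraries had already listed (Cited1, Hmgn5 and Hey1), so their direction is not independent evidence. Cited1 is an X-linked transcriptional co-regulator gene and stood at 32.9 and 8.33 CPM, a log2 ratio of 1.98 (1.63 to 2.34). Tex101, a germ cell surface glycoprotein gene, stood at 26.2 and 8.43 CPM, or 1.64, and Baz1a, a chromatin remodeller subunit gene, at 20.4 and 7.18 CPM. Card19, Larp1b, Arhgdig and Rgs10 had log2 ratios between 1.31 and 1.49. Of the genes lower with Stra8, Morc1, which encodes an ATPase that represses transposons in germ cells, stood at 9.42 and 35.3 CPM, a log2 ratio of -1.91 (-2.25 to -1.57). Hmgn5, an X-linked nucleosome-binding protein gene, stood at 54.9 and 160 CPM, or -1.55 (-1.69 to -1.41). Mt1, a metallothionein gene, had -1.34, the Notch effector gene Hey1 -1.29 and Rgcc, a cell cycle regulator gene, -1.21.

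RNA of red cells that reaches droplets of other cells gives a measure of free RNA. The 7 erythroid markers besides Alas2 came to 798 CPM with Stra8 and 771 CPM without, a log2 ratio of 0.05 that is -0.01 on the median-of-ratios scale. Hbb-y, an embryonic globin gene, stood at 350 and 341 CPM. The erythroid background was thus near equal in both classes. The summed interstitial markers stood at 49.6 and 42.5 CPM, and at 49.6 and 26.7 CPM without the 17 cells. Their part in the gene differences was not tested.

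Within the 398 cells, the level of Stra8 was then used to form 3 classes of 133, 132 and 133 cells, low, middle and high, with summed Stra8 levels of 52.8, 192 and 610 CPM. Their median depths were 25735, 22991 and 20787 UMIs, so depth moved with the class, and 1 Stra8 UMI counts for more CPM in a shallow cell. Meiosis genes without Stra8 came to 1174 CPM in the cells lacking it, then to 1426, 1741 and 2453 CPM in the low, middle and high classes. The pluripotency list went the other way, from 2325 CPM to 2059, 1650 and 1320 CPM. In neither list did the intervals of neighbouring classes overlap. Over the 30 genes higher with Stra8, the order low, middle, high held in all 30, and the reverse order in all 15 lower genes, beside 32.0% and 23.3% of the 5225 genes. The choice of those genes favours this order, so it is a description.

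The genes differed in the course they took. Meioc stood at 1.91 CPM without Stra8 and 3.30 CPM (1.71 to 5.77) in the low class, which overlap, then at 20.7 and 46.5 CPM, above both. Rec8 was already higher in the low class, with 18.4, 33.0, 69.0 and 121 CPM. Sycp1 likewise went 28.6, 45.7, 88.8 and 165 CPM. Sycp3 went 27.1, 31.9, 46.7 and 105 CPM, with overlapping intervals for the first pair. Zglp1 was higher in the low class than in cells without Stra8, at 106 CPM (96.1 to 118) against 73.8 CPM (68.7 to 79.2), and did not differ beyond counting error among the low, middle (116 CPM) and high (109 CPM) classes.

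Genes lower with Stra8 also stepped down unequally. Hmgn5 went from 160 CPM without Stra8 to 78.1, 50.5 and 30.9 CPM, and Morc1 from 35.3 to 17.3, 7.21 and 2.04 CPM, the last from 6 UMIs. Nanog went from 35.8 to 27.2, 16.6 and 9.84 CPM. Utf1 went from 580 to 518, 348 and 255 CPM. Pou5f1 went from 177 to 148, 136 and 106 CPM. The 89 cells with 1 Stra8 UMI had 1432 CPM of the meiosis lists and 2076 CPM of the pluripotency list, between the cells without Stra8 and the 309 cells with 2 or more (1961 and 1590 CPM).

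**Figure D4:**
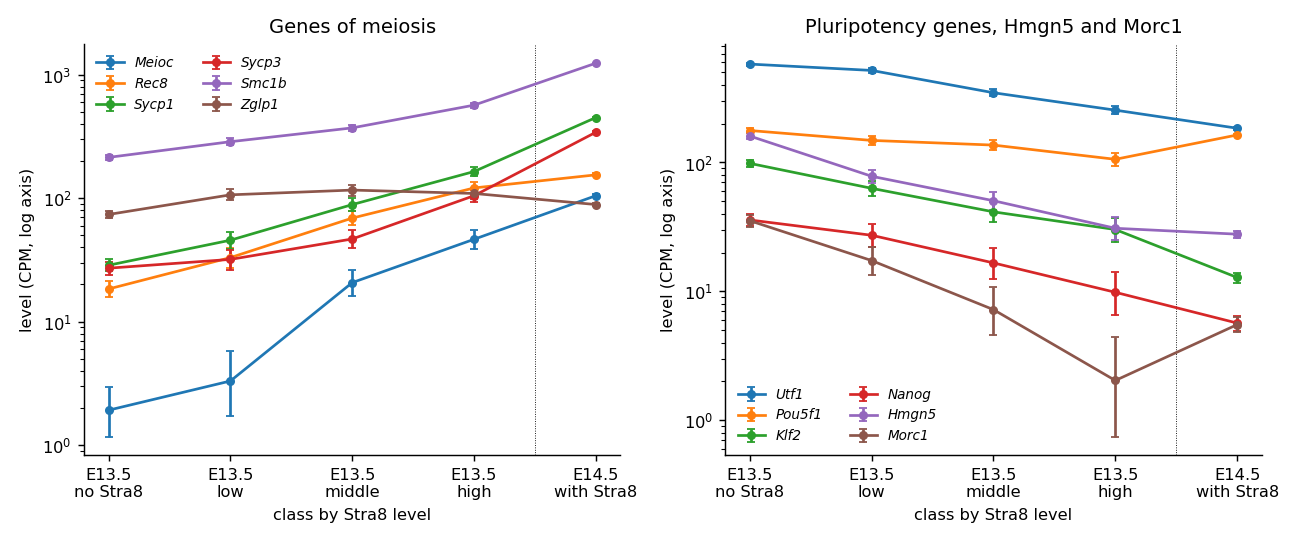
Levels in CPM (log axis) of 6 meiosis genes (left) and 6 genes lower with Stra8 (right) in E13.5 germ cells without Stra8, in the low, middle and high Stra8 classes, and in E14.5 germ cells with Stra8; bars are exact 95% intervals of counting error. Meioc goes from 3.30 to 20.7 CPM between the low and middle classes, Zglp1 is level over all 3, and Morc1 reaches 2.04 CPM in the high class.

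Per cell, the meiosis lists ranged from 137 to 9347 CPM in the cells with Stra8, with a median of 1716 CPM, and 89.2% of them lay above the median of the cells without (1186 CPM). Pluripotency levels had medians of 1654 and 2332 CPM, and 12.6% of the cells with Stra8 lay above the second. Over the 398 cells, Spearman's rho with the Stra8 level was 0.60 for the meiosis lists and -0.57 for the pluripotency list. It was -0.05 for S phase genes and -0.15 for genes of G2 and mitosis. These are descriptions over cells that share a library and a total. Depth moved with them: rho with the UMIs of the cell was -0.35 for the Stra8 level, -0.36 for the meiosis lists and 0.15 for the pluripotency list.

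Many cells held RNA of both programmes. With every cell thinned to 5000 UMIs, 40.7% (35.8% to 45.7%) of the cells with Stra8 had both a UMI of Sycp1, Sycp2, Sycp3 or Rec8 and one of Pou5f1, Nanog or Sox2, against 28.8% (24.4% to 33.6%) of those without. The meiotic genes alone were found in 22.6% and 6.23%, and the pluripotency genes alone in 27.9% and 49.4%. In the high Stra8 class 48.1% had both, 36.1% the meiotic genes alone, and 16 of 133 cells the pluripotency genes alone. The product of the share with any of the meiotic genes and the share with any of the pluripotency genes is 43.4% with Stra8 and 27.4% without, near the shares found with both. In cells with at most 1 germ cell gene a UMI was found after thinning in 9.36% for Rec8, 0.205% for Sycp1 and 0.667% for Pou5f1.

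**Figure D5:**
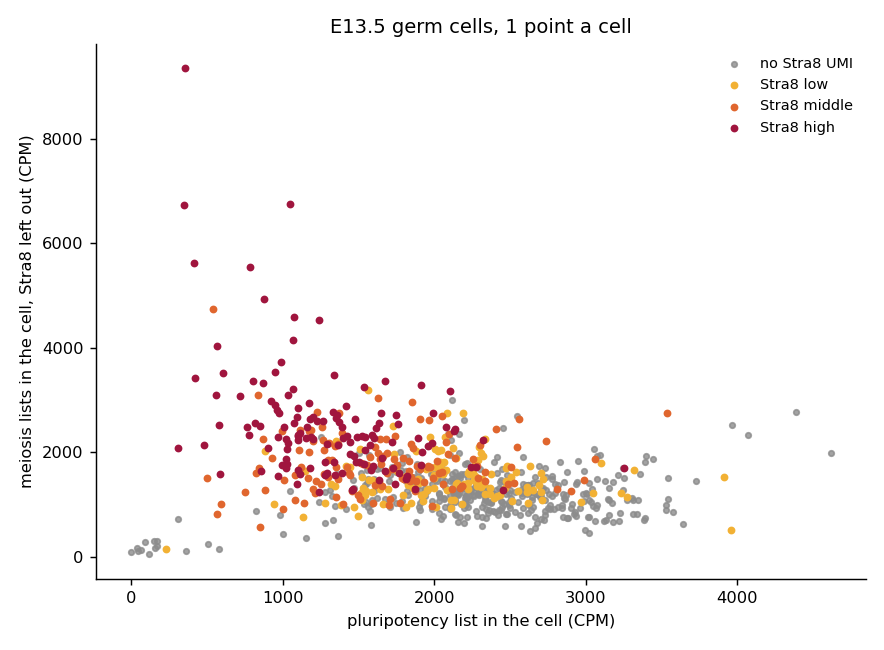
Each point is an E13.5 germ cell; the horizontal axis is the pluripotency list and the vertical axis the meiosis lists without Stra8, both in CPM of the cell. Cells without Stra8 are grey and the low, middle and high Stra8 classes yellow, orange and red; the highest cell reaches 9347 CPM of meiosis genes, and a small group of grey cells lies near the origin.

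The E14.5 library holds the same class a day later, though stage and library cannot be told apart. Its 2272 germ cells with Stra8 held 962 CPM of Stra8, against 266 CPM at E13.5. Of 5599 genes that met the minimums, 315 (5.63%) were higher and 61 (1.09%) lower at E14.5. The median log2 ratio of all genes was 0.14 and the median-of-ratios scale shifted it by 0.13, giving 232 higher and 136 lower. Log2 ratios of E14.5 to E13.5 are given below relative to that scale.

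Meiosis genes stood higher again, at 4948 CPM against 1839 CPM, a log2 ratio of 1.29. Of their 29 genes that met the minimums, 20 were higher by the size rule, beside 5.63% of all genes. Sycp3 went from 58.7 to 343 CPM (2.41), Sycp1 from 95.6 to 451 CPM (2.10), Meioc from 22.0 to 105 CPM (2.12) and Tex15 from 36.8 to 186 CPM. Prdm9 went from 2.25 to 34.7 CPM (3.81) and Spdya, whose product activates CDK2 at meiotic telomeres, from 4.30 to 52.6 CPM (3.48). Rec8 differed less, from 71.3 to 155 CPM (0.98). Zglp1 went the other way, from 111 to 88.8 CPM (-0.45).

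The pluripotency list stood lower at E14.5, at 1144 CPM against 1702 CPM, a log2 ratio of -0.71. Of its 11 genes that met the minimums, 4 were lower by the size rule, beside 1.09% of all genes. Klf2 (-1.98), Utf1 (-1.19) and Lin28a (-1.22) were among them, so that Lin28a, level between the classes at E13.5, was lower a day later. Pou5f1 stood at 163 CPM at E14.5, above its 106 CPM in the high Stra8 class of E13.5, whereas Nanog stood at 5.68 CPM, below 9.84 CPM.

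Among the 8 genes with the largest ratios, 3 encode MHC proteins: H2-D1 went from 3.58 to 58.3 CPM (3.89), H2-K1 from 6.86 to 86.1 CPM (3.52) and H2-Ab1 from 1.94 to 31.7 CPM (3.89). The 5 immune cell markers also stood higher, at 4.71 CPM in the E13.5 cells and 11.4 CPM in the E14.5 cells, a relative log2 ratio of 1.14, with Lyz2 at 2 and 116 UMIs and Ptprc, the marker of all white blood cells, at 1 and 7 UMIs. Within the E13.5 library the immune cell markers stood at 4.71 CPM with Stra8 and 7.85 CPM without. H2-D1 stood there at 3.58 and 0.383 CPM, H2-K1 at 6.86 and 1.05 CPM and H2-Ab1 at 1.94 and 0.287 CPM. Those levels without Stra8 came from 4, 11 and 3 UMIs. The part of immune cells in the MHC ratios was not tested. Lypd4 went from 0.819 CPM, 8 UMIs, to 30.0 CPM, and Dmrtc2, a DM-domain gene, from 6.35 to 83.2 CPM (3.58). Among the lowest ratios were Xaf1, from 23.7 to 3.90 CPM (-2.74), Khdc1a, from 37.5 to 9.76 CPM (-2.07), and Etv5, an ETS factor gene, from 46.8 to 13.8 CPM (-1.90). Jund, an AP-1 subunit gene, stood at 173 and 174 CPM in the classes at E13.5, with intervals that overlap, and had a log2 ratio of 0.11 (0.01 to 0.21) without the 17 cells. It stood at 57.8 CPM at E14.5 (-1.72).

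The comparison of cells with and without Stra8 was repeated within the other libraries, whose cells the E13.5 contrast did not use. At E14.5, with 118 cells without Stra8, 374 of 5785 genes (6.46%) were higher and 321 (5.55%) lower with Stra8. Of the 30 genes higher at E13.5, 29 had the same direction and 21 passed the size rule, and of the 15 lower, 15 and 10 did. Of the genes measured at E13.5, 51.1% were higher with Stra8 at E14.5. At E12.5, where 19 cells had Stra8, 28 of the 30 and 15 of the 15 had the same direction, beside 54.3% and 45.7% of the genes measured at E13.5. Fewer of them, 16 and 9, had intervals that excluded 0 in that direction, and 7 and 4 passed the size rule. Meioc had a log2 ratio of 3.03 (1.00 to 4.65) in the E12.5 library, from 4 UMIs with Stra8, and of 3.72 (3.08 to 4.45) in the E14.5 library. Morc1 had -1.53 and -2.85 in those libraries. Of 5016 genes measured in the E13.5 and E14.5 libraries, 0 passed the size rule in opposite directions and 31 passed it in the same one. The 118 cells without Stra8 at E14.5 held 316 CPM of pre-granulosa markers, against 97.9 CPM in the 2272 cells with it, and 518 CPM of Xist, against 2357 CPM in the E14.5 cells with at most 1 germ cell gene. The part of those cells in the E14.5 ratios was not tested.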

How the data were processed

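The authors deposited 1 table of natural log values, ln(1 + UMIs of a gene / UMIs of the cell × 10000), a unit read from the values. Per the submitters' processing notes, Cell Ranger 2.2.0 and mm10 were used. Counts had been assumed in the plan; UMIs were recovered from the values, 100% of 69792436 of which were whole multiples at a relative tolerance of 1e-06. Cell names gave the stage, with 0 columns unmatched. UMIs summed per class give CPM, with Poisson intervals that are exact; ratios carry the exact binomial split of the counts and shares Clopper-Pearson intervals, all at 95%. A count of 0 allows up to 3 counts. Doublets were scored per library with Scrublet in scanpy 1.11.5 (expected rate 0.06), calling 91 of 4842 cells at E13.5 (1.88%), and kept except in 1 alternative. Beyond the lists, the 12 genes with the largest and the 12 with the smallest ratio at E13.5, and 8 and 8 for E14.5, could be named. The size rule was run on simulated counts with planted changes larger than its ratio limit. Those counts varied by counting error only, so they cannot show how the rule behaves with variation between cells. Members, lists and rules were chosen with earlier results of these data known. Alternatives to the gate, depth, scale and thresholds were run.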

Additional observations from a re-analysis of the deposited data

How the results depend on the processing

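The share of E13.5 germ cells with Stra8, 50.8%, was 62.8% with all 6 markers required, 44.5% with cells of 1 Stra8 UMI left out, and 31.5% and 18.6% in cells thinned to 5000 and 2000 UMIs. The counts of 30 higher and 15 lower genes became 50 and 40 with at least 2 Stra8 UMIs, 7 and 7 at 50 CPM or more, 194 and 159 at a ratio of 1.5, 1 and 0 at a ratio of 4, 79 and 51 in thinned cells, and 47 and 29 with Stra8 status taken from thinned cells. The lower genes alone became 27 without cells with 3 or more pre-granulosa markers, 24 in cells between the quartiles of UMI totals and 28 on the median-of-ratios scale. The meiosis log2 ratio of 0.65 kept its direction in all 11 alternatives. It was 0.61 with 4 markers required and also without the 17 cells of low marker level (an alternative added after the data were seen), 0.48 with all 6 markers, 0.74 with at least 2 Stra8 UMIs, 0.59 at middle depth, 0.58 on the median-of-ratios scale, 0.72 thinned, 0.70 with thinned status and 0.69 as a mean over cells. The pluripotency log2 ratio of -0.45 kept its direction in the same 11. It was -0.41 with all 6 markers, -0.55 with at least 2 Stra8 UMIs and -0.50 without cells with 3 or more pre-granulosa markers. Without the 17 cells it was -0.49, at middle depth -0.42, on the median-of-ratios scale -0.51 and with thinned status -0.55. The 376 genes that differed between E14.5 and E13.5 became 149 with all 6 markers, 607 at middle depth, 177 at 50 CPM, 1361 at a ratio of 1.5 and 52 at a ratio of 4. The causes of these shifts were not tested, beyond the thresholds themselves. With 1 library per stage no spread between animals could be estimated, intervals cover counting error only, and depth limits genes below 20 CPM. No paired analysis was possible because each stage has 1 library.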

Other observations

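At E12.5 the 19 germ cells with Stra8 held a median of 1 Stra8 UMI, at a median depth of 27159 UMIs. Their meiosis lists came to 1489 CPM, against 1089 CPM in the 649 germ cells without it, and their pluripotency list to 2095 against 2530 CPM. Rec8 stood at 19.8 and 7.53 CPM and Sycp1 at 46.9 and 16.7 CPM in those classes.

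Genes on the X chromosome took 3.89% of the UMIs of E13.5 germ cells with Stra8 and 3.65% of those without, and 4.09% of those with Stra8 at E14.5. The 5 genes that an earlier look at these libraries had listed as higher at E14.5 than at E11.5, Taf7l, Cited1, 4930524B15Rik, Gm15262 and H2-Ab1, came to 60.0 CPM with Stra8 and 11.7 CPM without at E13.5. Taf7l, an X-linked TFIID subunit gene, stood at 14.6 and 2.01 CPM. The 8 listed as lower, which include Hmgn5 and Hey1, came to 103 and 267 CPM. Both lists were chosen on these libraries, so they are no independent evidence of direction.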
